A study of Mus musculus with 2 samples.

Results

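Semaphorins, plexins, ephrins, Eph receptors, netrins and Unc5 receptors were examined in single cells of 2 mouse mammary tumor models. Members were taken by symbol (Sema3 to Sema7, Plxna to Plxnd, Epha, Ephb, Efna, Efnb, Ntn and Unc5a to Unc5d, with names that extend them) and had to hold at least 50 UMIs, unique molecular identifiers that count captured transcripts once, over both libraries. Of 33696 genes, 63 matched by symbol and 54 of these passed the minimum. The 54 comprised 17 semaphorins, 9 plexin symbols, 7 EphA and 5 EphB receptors, 5 ephrin-A and 3 ephrin-B ligands, 4 netrins and 4 Unc5 symbols. The plexin symbols include Plxna4os1, an RNA antisense to Plxna4, and the Unc5 symbols include Unc5cl, which was taken in by its symbol only. The 9 genes left out held 2 (Plxna4os2), 9 (Plxnb3), 16 (Plxna4os3), 16 (Unc5d), 17 (Sema3e), 20 (Epha10), 28 (Sema4f), 29 (Sema5b) and 44 (Epha6) UMIs. Just inside the minimum lay Ntn5 with 68 UMIs, Unc5cl with 78 and Efna3 with 90.

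The 2 models, PyMT-M and PyMT-N, are sublines of the MMTV-PyMT tumor, in which a mammary tumor virus promoter drives the polyoma middle T oncogene. The study classes PyMT-M as High-MAC, rich in macrophages, and PyMT-N as Low-MAC, rich in neutrophils. Both were grown in the fat pad of young adult female C57BL/6 mice, and no treatment or allele other than the tumor line separates the groups. Dissociated tumors went through depletion of CD45+ and Ter119+ cells, bead enrichment and sorting for CD31 and CD144, and 3 tumors were pooled into 1 droplet library per model. Each condition is therefore 1 library, no difference between PyMT-M and PyMT-N was tested, and the intervals cover counting error only.

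Cells were put in 4 classes by counts of a few genes, none of them a member. Blood endothelial cells held at least 5 UMIs of Pecam1, Flt1, Emcn and Kdr together and at most 1 of Krt8, Krt18 and Rhox5. Lymphatic cells held at least 3 UMIs of Prox1, Mmrn1 and Reln, tumor cells at least 3 of Krt8, Krt18 and Rhox5 and none of Pecam1 and Flt1, and fibroblast cells at least 3000 CPM of Col3a1, where CPM is the count of a gene scaled to a common total of all UMIs. After the filter on detected genes and mitochondrial UMIs, PyMT-M gave 310 blood endothelial, 7 lymphatic, 4853 tumor and 32 fibroblast cells, and PyMT-N gave 1035, 199, 3289 and 53. The labels call the cells endothelial, yet blood endothelial cells were 5.37% of kept PyMT-M and 19.3% of kept PyMT-N cells, and tumor cells 84.0% and 61.4%. Blood endothelial cells held 2379282 UMIs in PyMT-M (median 7050 a cell) and 14824639 in PyMT-N (median 12896 a cell). Only 3 of the 310 and 8 of the 1035 blood endothelial cells lay at the limit of 5 UMIs.

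The class names were checked against marker lists. All 10 endothelial markers passed 10 CPM in blood endothelial cells of both libraries, and their summed level was 7862 CPM for PyMT-M and 8314 CPM for PyMT-N, whereas tumor cells gave 40.5 and 12.5 CPM. Pecam1, Flt1, Emcn and Kdr are among them, so part of this follows from the class rules. The markers outside the rules were each higher in blood endothelial than tumor cells of both libraries. Cdh5, for example, stood at 931 and 1157 CPM against 3.71 and 1.99 CPM. The 7 lymphatic markers summed to 4147 and 15343 CPM in lymphatic cells against 69.8 and 140 CPM in blood endothelial cells. Prox1, Mmrn1 and Reln are among these and define the class. The others were each higher in lymphatic cells of both libraries, such as Lyve1 at 803 and 456 CPM against 18.1 and 1.89 CPM. The lymphatic rule sets no keratin limit. The 8 epithelial markers summed to 287 and 124 CPM in lymphatic cells against 14.7 and 9.17 CPM in blood endothelial cells. Whether tumor RNA adds to the levels of lymphatic cells was not tested. The tumor class went by few genes: of 8 epithelial markers, 2 passed 10 CPM in PyMT-M (Krt8 and Rhox5) and 3 in PyMT-N (Krt8, Krt18 and Rhox5), while Epcam stood at 3.53 and 0.412 CPM, so the class is named by its rule. Immune markers summed to 72.7 CPM in PyMT-M and 421 CPM in PyMT-N blood endothelial cells, and pericyte markers to 130 and 266 CPM. The pericyte sum of PyMT-N lay mostly in Kcnj8 (117 CPM, 9.25 in PyMT-M) and Abcc9 (142 CPM, 23.1 in PyMT-M). The other pericyte markers were higher in PyMT-M. Rgs5 stood at 67.2 against 2.90 CPM, Notch3 at 14.7 against 0.202, Pdgfrb at 10.1 against 3.04 and Cspg4 at 5.46 against 0.607. The libraries shared 20 barcodes, 9 of them after the filter.

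These families guide growing axons and growing vessels by the same signals. Semaphorins are secreted or membrane-bound ligands of plexins, receptors whose cytoplasmic part acts on small GTPases of the Ras family and which, for most secreted semaphorins, work together with neuropilins. Ephrins are held on the cell surface and bind Eph receptor tyrosine kinases on the neighbouring cell, with signals running into both cells. Ephrin-B2 (Efnb2) and its receptor EphB4 (Ephb4) are the textbook pair of arterial and venous endothelium. Netrins are secreted proteins related to laminins, and Unc5b is the netrin receptor of endothelial cells.

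Promoters were looked at for all members, and those higher in blood endothelial than tumor cells were also counted apart. RefSeq promoter windows (GRCm38.p6) of 250 bases upstream of the start site were used for 46 of the 54 members (60 windows). A whole chromosome was left out beforehand, for members and for all genes alike, so that genes on it have no window here. Shown here are 4 of them, for the guidance receptor with the highest blood endothelial level (Plxnd1), for a second plexin (Plxna2), for an arterial ligand (Efnb2) and for the member with the highest ratio of PyMT-N blood endothelial to tumor cells (Ephb1). Their positions are chr6:115995006-115995255 on the minus strand for Plxnd1, chr1:194619579-194619828 on the plus strand for Plxna2, chr8:8661243-8661492 on the minus strand for Efnb2 and chr9:102354694-102354943 on the minus strand for Ephb1. Each is written 5′ to 3′ on the strand of its gene, and capitals mark the matches to 4 motifs searched on both strands. They were the GC box with the letters GGGCGG, a core of the kind that ETS factors bind with the letters AGGAAG, a further core of that kind with the letters CCGGAA, and the TATA box with the letters TATAAA.
Plxnd1: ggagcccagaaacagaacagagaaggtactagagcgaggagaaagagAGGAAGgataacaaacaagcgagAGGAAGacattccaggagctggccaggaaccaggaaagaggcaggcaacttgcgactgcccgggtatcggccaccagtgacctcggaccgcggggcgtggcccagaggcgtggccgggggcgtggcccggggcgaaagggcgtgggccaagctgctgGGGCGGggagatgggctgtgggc
Plxna2: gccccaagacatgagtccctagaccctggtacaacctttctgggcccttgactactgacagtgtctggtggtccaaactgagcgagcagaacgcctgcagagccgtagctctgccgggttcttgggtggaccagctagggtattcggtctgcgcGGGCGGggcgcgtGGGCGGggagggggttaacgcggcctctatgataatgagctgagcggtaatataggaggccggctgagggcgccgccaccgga
Efnb2: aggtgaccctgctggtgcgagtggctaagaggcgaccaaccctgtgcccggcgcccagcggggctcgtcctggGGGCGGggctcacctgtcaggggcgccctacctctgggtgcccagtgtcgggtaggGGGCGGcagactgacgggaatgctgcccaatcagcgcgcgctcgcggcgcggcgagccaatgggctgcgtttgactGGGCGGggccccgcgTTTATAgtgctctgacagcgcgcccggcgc
Ephb1: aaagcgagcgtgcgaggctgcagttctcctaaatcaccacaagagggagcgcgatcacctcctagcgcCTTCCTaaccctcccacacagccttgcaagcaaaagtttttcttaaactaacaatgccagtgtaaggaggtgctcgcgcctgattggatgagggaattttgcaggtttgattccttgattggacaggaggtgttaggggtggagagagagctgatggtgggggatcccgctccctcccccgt

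The Plxnd1 window held 1 GC box and 2 matches to AGGAAG, the Plxna2 window 2 GC boxes, the Efnb2 window 3 GC boxes and 1 TATA box, and the Ephb1 window 1 match to AGGAAG. No matches overlapped. The GC box was present in 76.7% of member windows and in 32.7% of the 32851 windows of all genes. The member windows were also richer in GC, with a median of 64.4% against 52.4%. Members had to pass the minimum of 50 UMIs, as 16682 of 33696 genes did, while the windows of all genes had no such minimum. The part of base composition and of this minimum in these shares was not tested. AGGAAG was present in 33.3% of member windows and 29.5% of all windows, CCGGAA in 11.7% and 12%, and TATAAA in 1.67% and 12.4%. Among the 11 members called higher in blood endothelial than tumor cells, 7 had windows, 9 in all, of which 7 (77.8%) held the GC box, 4 (44.4%) AGGAAG, 0 CCGGAA and 1 (11.1%) TATAAA. A match is a run of letters and no evidence of binding.

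**Figure D1:**
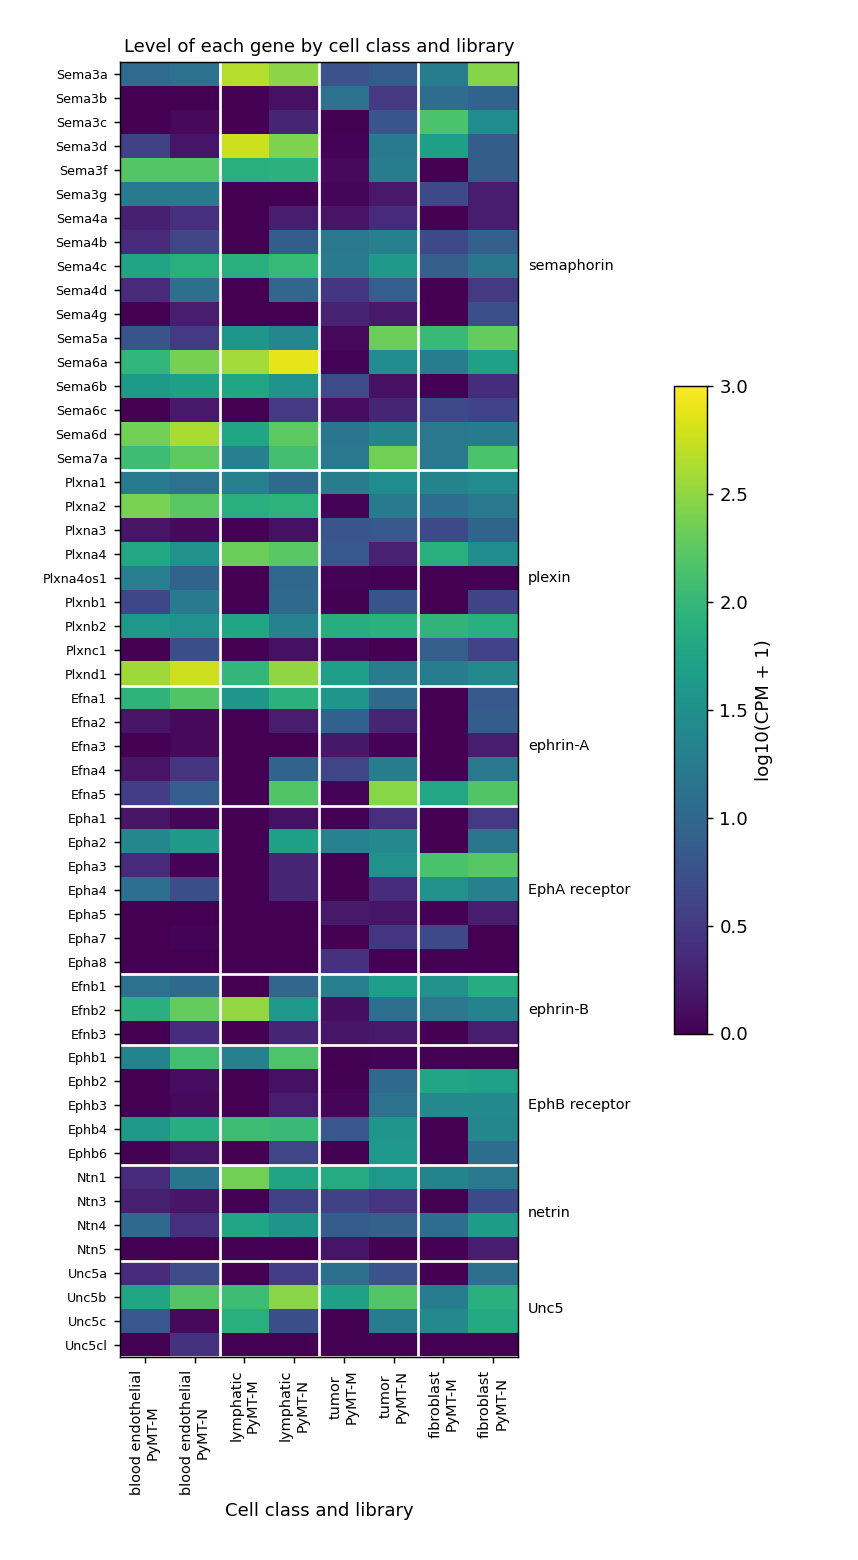
Level of each of the 54 members (rows, by family) in blood endothelial, lymphatic, tumor and fibroblast cells of PyMT-M and PyMT-N (columns), as log10 of CPM + 1 from UMIs summed over the cells of a class. Plxnd1, Sema6d, Plxna2, Sema6a and Sema3f stand out in the blood endothelial columns, while the PyMT-N tumor column holds levels of Efna5, Sema7a and Sema5a far above those of the PyMT-M tumor column.

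Among these families, semaphorins and plexins had the highest summed levels in blood endothelial cells of both libraries. Summed over members, semaphorins stood at 732 CPM in PyMT-M and 1172 CPM in PyMT-N, and plexins at 751 and 858 CPM. Ephrin-A ligands summed to 92.0 and 162 CPM, ephrin-B ligands to 92.9 and 207 CPM, EphA receptors to 37.0 and 45.1 CPM and EphB receptors to 62.2 and 197 CPM. Unc5 genes summed to 63.0 and 162 CPM, and netrins to 11.8 and 15.8 CPM. A level of at least 10 CPM was reached by 22 of 54 members in PyMT-M and by 22 in PyMT-N, 19 of them in both. The share of all genes at this level was not counted, so these numbers only describe the members. Because the assay counts 3′ ends once per transcript, CPM was compared between genes without division by length.

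The plexin with the highest level was Plxnd1, the endothelial receptor of secreted semaphorins. It stood at 369 CPM in PyMT-M (878 UMIs, 95% interval 345 to 394) and at 584 CPM in PyMT-N (8651 UMIs, 571 to 596). Sema3e, its direct ligand, held 17 UMIs over both whole libraries and was not a member. Plxna2, a receptor of class 6 semaphorins, stood at 246 CPM in PyMT-M (585 UMIs, 226 to 267) and 170 CPM in PyMT-N (2520 UMIs, 163 to 177), the reverse order of the libraries. Plxna4, which shares ligands with Plxna2, stood at 60.9 CPM (145 UMIs) and 31.8 CPM (472 UMIs). Its antisense RNA Plxna4os1 stood at 18.1 and 8.36 CPM, and since the sources used here do not give the strand setting of the counting, reads of this pair may be mixed. Plxnb2 and Plxna1 were lower, at 38.2 and 32.2 CPM and at 15.6 and 12.3 CPM.

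Sema6d, a membrane-bound ligand of plexins A, was the semaphorin with the highest level, at 229 CPM in PyMT-M (546 UMIs, 211 to 250) and 418 CPM in PyMT-N (6193 UMIs, 407 to 428). Sema6a, ligand of Plxna2 and Plxna4, stood at 93.7 CPM (223 UMIs, 81.8 to 107) and 240 CPM (3561 UMIs, 232 to 248). Sema3f, a secreted ligand that acts through Nrp2, was level between the libraries, at 156 CPM (372 UMIs, 141 to 173) and 158 CPM (2347 UMIs, 152 to 165). Sema7a, a lipid-anchored semaphorin that binds Plxnc1 and integrins, stood at 117 CPM (278 UMIs) and 180 CPM (2666 UMIs). Lower levels were found for Sema4c, a ligand of Plxnb2, at 55.9 and 75.8 CPM, for Sema6b at 42.4 and 50.1 CPM, and for the secreted Sema3g at 15.6 and 16.8 CPM.

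Among ephrins, Efnb2 stood at 80.3 CPM in PyMT-M (191 UMIs, 69.3 to 92.5) and 196 CPM in PyMT-N (2903 UMIs, 189 to 203), and Efna1, the ligand of EphA2, at 88.7 CPM (211 UMIs) and 153 CPM (2270 UMIs). Their receptors were lower. Ephb4 stood at 41.2 CPM (98 UMIs, 33.4 to 50.2) and 73.7 CPM (1092 UMIs, 69.4 to 78.2), and Epha2 at 24 CPM (57 UMIs) and 40.5 CPM (601 UMIs). Ephb1, another receptor of B ephrins, gave the widest fold between the libraries among these ephrins and Eph receptors. It stood at 21.0 CPM in PyMT-M (50 UMIs, 15.6 to 27.7) and 122 CPM in PyMT-N (1811 UMIs, 117 to 128). Unc5b stood at 56.3 CPM (134 UMIs, 47.2 to 66.7) and 156 CPM (2311 UMIs, 150 to 162). Its ligand Ntn1 was at 1.26 CPM from 3 UMIs in PyMT-M, which is the floor of that class, and at 13.7 CPM from 203 UMIs in PyMT-N.

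Shares of cells with a UMI were compared after each cell was thinned to 5000 UMIs, which left out 22 of the 310 PyMT-M and 15 of the 1035 PyMT-N blood endothelial cells. Plxnd1 was seen in 76.4% of PyMT-M (95% exact interval 71.1 to 81.2) and 88.4% of PyMT-N blood endothelial cells (86.3 to 90.3), and in 87.1% and 95.5% before thinning. In thinned tumor cells (median depth before thinning 23778 and 20777 UMIs) it was seen in 20.5% and 9.0%. Efnb2 was seen in 22.9% (18.2 to 28.2) and 42.6% (39.6 to 45.7) of blood endothelial cells (31.3% and 61.5% unthinned) against 0.186% and 4.87% of tumor cells. For Ephb1 these shares were 8.33% (5.41 to 12.1) and 34.1% (31.2 to 37.1) (9.35% and 51.4% unthinned) against 0 of 4851 (which allows a share of up to 0.076% by the exact interval) and 0.0304% of tumor cells. Sema6a was seen in 27.1% and 56.0% of blood endothelial cells, Plxna2 in 64.6% and 52.0%, and Sema3f in 50% and 50.3%. For all of these genes the share in blood endothelial cells lay above that in tumor cells of the same library.

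To ask which members separate blood endothelial from tumor cells in both models, the classes were compared within each library. A member was called where the fold was at least 4 in the same direction in both. The contrast is with tumor cells only: among the called members Sema6a and Plxna4 were higher still in PyMT-N lymphatic cells, while Efnb2 and Sema3g were lower there. Of 38 members with at least 20 UMIs to compare, 11 were higher in blood endothelial cells, where 7.48% of the 13908 genes compared were, and 5 were lower, where 2.87% were. The 11 were Ephb1, Efnb2, Plxna2, Plxna4, Plxna4os1, Plxnd1, Sema3f, Sema3g, Sema6a, Sema6b and Sema6d, and all 11 stayed called when cells with immune or pericyte UMIs, or the 10% of cells with the most UMIs, were left out. The median log2 ratio of the compared members was 0.77 for PyMT-M and 0.54 for PyMT-N, while all genes gave 0.11 in both.

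Ephb1 had the highest ratio of these in PyMT-N. It was present at 0.00831 CPM (1 UMI) in PyMT-M and 0.0797 CPM (6 UMIs) in PyMT-N tumor cells, so that blood endothelial cells were higher by 11.30 (8.76 to 16.64) and 10.58 (9.46 to 12.03) on the log2 scale. Sema6d was higher by 4.05 (3.91 to 4.19) and 4.32 (4.24 to 4.40), Plxnd1 by 3.0 (2.89 to 3.1) and 5.10 (5.01 to 5.19), and Sema3g by 7.06 and 4.81. For several others the size of the ratio was set by the tumor line. Plxna2 was higher in blood endothelial cells by 11.53 in PyMT-M, whose tumor cells held it at 0.0831 CPM, and by 3.38 in PyMT-N, whose tumor cells held it at 16.4 CPM. Sema6a gave 10.29 and 3.1, Sema3f 9.56 and 3.21, and Efnb2 8.07 and 4.11 in the same way. The 5 members lower in blood endothelial cells were Plxna3, Sema3b, Efna4, Sema4b and Efna2. Each stood at 3.24 CPM or less in blood endothelial cells, and at most at 19.5 CPM in tumor cells, a level reached by Sema4b in PyMT-N.

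Levels in tumor and blood endothelial cells were also set side by side for members that PyMT-N tumor cells hold at high level. In PyMT-N, Efna5 stood at 293 CPM in tumor and 6.95 CPM in blood endothelial cells, Sema5a at 211 and 2.23 CPM and Ephb6 at 39.0 and 0.472 CPM, so that the blood endothelial level was 2.37%, 1.06% and 1.21% of the tumor level. Sema7a and Unc5b, high in both classes of PyMT-N, stood at 180 CPM in blood endothelial against 227 CPM in tumor cells, and at 156 against 157 CPM. Whether RNA of other cells reached blood endothelial droplets was not tested.

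Blood endothelial cells were then compared between PyMT-M and PyMT-N, with a fold of 2 as the call. Of 35 members compared, 4 were higher in PyMT-M, where 5.61% of the 13063 genes compared were, and 12 were lower in PyMT-M, where 9.97% were. As log2 of PyMT-M over PyMT-N, the median was -0.66 for these members and -0.046 for all genes. The 12 lower members were Ntn1, Sema4d, Ephb1, Plxnb1, Efna4, Plxnc1, Unc5a, Unc5b, Efna5, Sema6a, Sema4b and Efnb2, and the 4 higher ones were Ntn4, Epha4, Sema5a and Plxna4os1. The remaining 19 members were in neither list.

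**Figure D2:**
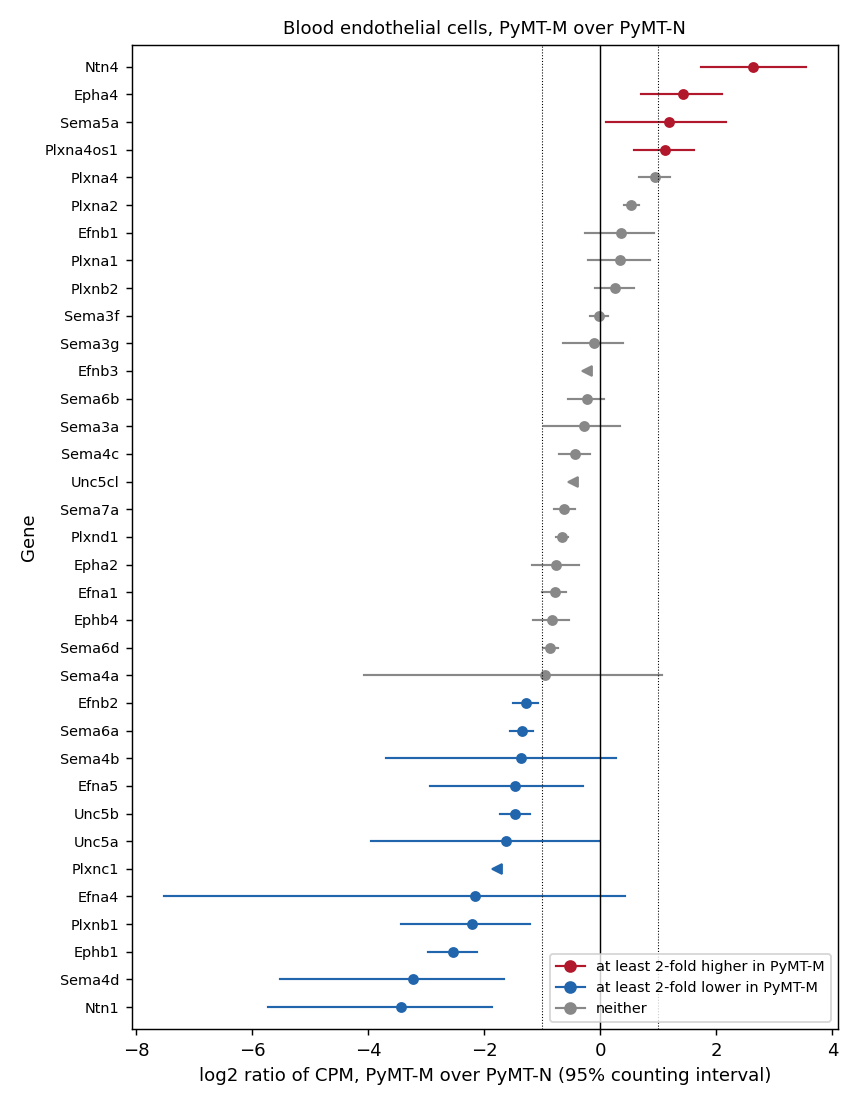
Ratio (log2) of PyMT-M to PyMT-N blood endothelial cells for the 35 members compared (points) with its exact 95% counting interval (bars), and dotted lines mark 2-fold. Ephb1, Unc5b, Sema6a and Efnb2 lie left of the lower line with short bars, Plxnd1 and Sema6d lie between it and equality, and Sema3f sits at equality.

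Among the lower members, 4 held at least 50 UMIs in each library. Ephb1 was lower in PyMT-M by a log2 ratio of -2.54 (-2.97 to -2.13), Unc5b by -1.47 (-1.73 to -1.22), Sema6a by -1.36 (-1.56 to -1.16) and Efnb2 by -1.29 (-1.51 to -1.07). Ephb4, the receptor of Efnb2, shifted the same way by less than the fold used, at -0.84 (-1.15 to -0.54), as did Sema6d at -0.86 (-0.99 to -0.74), Efna1 at -0.79, Epha2 at -0.76, Plxnd1 at -0.66 (-0.76 to -0.56) and Sema7a at -0.62. Plxna2 shifted the other way, at 0.53 (0.40 to 0.66), and Plxna4 at 0.94 (0.66 to 1.21). The ratio of Sema3f was -0.02 (-0.18 to 0.14).

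The filter on detected genes bore on these values. It kept barcodes within 2-fold of the median gene number of the whole library, and without that limit the blood endothelial class grew from 310 to 589 cells in PyMT-M and from 1035 to 1069 in PyMT-N. The 279 added PyMT-M cells were shallow, with a median of 3363 UMIs. They held Efnb2 at 207 CPM, Sema6a at 226 CPM, Ephb1 at 32.6 CPM and Unc5b at 103 CPM. The 34 PyMT-N cells outside the limit, with a median of 3852 UMIs, held these genes at 281, 321, 104 and 265 CPM. Those PyMT-N levels came from 35, 40, 13 and 33 UMIs. Within the limit PyMT-N held Efnb2 at 196 CPM and Sema6a at 240 CPM. With the added cells of both libraries, Efnb2 was at 116 CPM and Sema6a at 131 CPM in PyMT-M. The log2 ratio became -0.77 for Efnb2 and -0.88 for Sema6a, and both calls were lost. Efna5 went from -1.46 to -0.01, Efna4 from -2.17 to -0.31 and Sema4b from -1.36 to -0.82, so that 5 of the 12 lower members left the list. Sema4a (-1.40) and Efnb3 (-2.28) entered it, which made 9 lower members in all, where 8.93% of all genes were lower. Among the higher members Sema5a (0.72) left and Plxna4 (1.33) entered. The ratio of Ephb1 was then -2.33 and that of Unc5b -1.18, still past the fold. Sema3g stood at 56.6 CPM (52 UMIs) in the added PyMT-M cells and at 32.1 CPM (4 UMIs) in the added PyMT-N cells. With the cells of both sides of the limit it stood at 27.0 CPM in PyMT-M and 16.9 CPM in PyMT-N.

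Other cell features differed between the libraries alongside these genes. Cycling cells, defined by proliferation genes, made up 30.6% of PyMT-M and 13.5% of PyMT-N blood endothelial cells. Without them the log2 ratios were -2.24 for Ephb1, -1.23 for Unc5b, -1.27 for Sema6a and -1.07 for Efnb2, and with all cells thinned to 1 depth they were -2.29, -1.57, -1.37 and -1.27. Cells were set apart that held at least 3 UMIs of the immune markers, or at least 3 of Rgs5, Pdgfrb, Cspg4 and Notch3 together. Kcnj8 and Abcc9, the other pericyte markers, were not counted for this. The cells set apart made up 3.23% of PyMT-M (10 cells) and 7.05% of PyMT-N (73 cells). Without those cells 8 of 29 members compared were lower in PyMT-M, where 6.74% of all genes were, and 3 were higher, where 5.97% were. Efna5, Plxnc1, Sema4b and Sema4d left the lower list, and Sema5a left the higher one.

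Of the lower members with few counts, Plxnb1, a receptor of Sema4d, stood at 3.36 CPM (8 UMIs) and 15.6 CPM (231 UMIs), which is -2.21 (-3.44 to -1.21). Ntn1 gave -3.44 (-5.73 to -1.87) from its 3 and 203 UMIs. Sema4d held 3 and 176 UMIs, and 2 of the 176 were left without the immune or pericyte cells. Plxnc1 held 0 and 64 UMIs, of which 1 was left. The intervals of 2 of the 12 crossed equality, those of Efna4, with 1 and 28 UMIs (-7.52 to 0.43), and Sema4b, with 3 and 48 UMIs (-3.69 to 0.27).

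The 4 members higher in PyMT-M were carried by few UMIs. Ntn4, a netrin of basement membranes, stood at 9.67 CPM against 1.55 CPM in PyMT-N, which is 2.64 (1.74 to 3.54). It rested on 23 UMIs in each library, spread over 9 PyMT-M and 12 PyMT-N cells, and 1 PyMT-M cell held 8 of them. Epha4 gave 1.42 (0.71 to 2.09) from 27 and 63 UMIs, and 8 of its 27 lay in 1 cell. Sema5a gave 1.18 (0.09 to 2.17) from 12 and 33 UMIs, and 5 of its 12 lay in 1 cell. Without the immune or pericyte cells 4 and 14 of its UMIs were left. Plxna4os1 gave 1.11 (0.58 to 1.62) from 43 and 124 UMIs, spread over 38 and 104 cells. None of the 4 stayed called after cells were thinned to 1 depth, where Epha4 gave 0.94, Plxna4os1 0.86 and the other two had too few UMIs to compare.

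Blood endothelial cells were also split by lists of state genes that hold no member, as cells with at least 3 UMIs and 2 genes of a list. Arterial genes marked 15.8% of PyMT-M and 48.0% of PyMT-N cells, and venous genes 43.2% and 79.5%. State shares cover only the cells within the limit on gene number and were not counted without that limit. Tip cell genes, those of sprouting vessel ends, marked 67.1% and 79.8%. Tip cells here are therefore most of the class, named by the gene list and not shown to be vessel ends. Deeper cells reach the minimum more easily. PyMT-N arterial cells had a median of 14110 UMIs against 11565 in its other blood endothelial cells. For tip cells these medians were 7255 against 6514 in PyMT-M and 13313 against 10662 in PyMT-N. The groups are ranges that overlap. Cells with immune or pericyte UMIs bore on the reference level: outside PyMT-N tip cells Efnb2 stood at 79.7 CPM with them and 119 CPM without. Ratios are therefore given with all cells, and again without those cells, an exclusion chosen after seeing the data, where it moved them most. For each member the level in cells with the state was divided by that in the other blood endothelial cells of the same library.

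**Figure D3:**
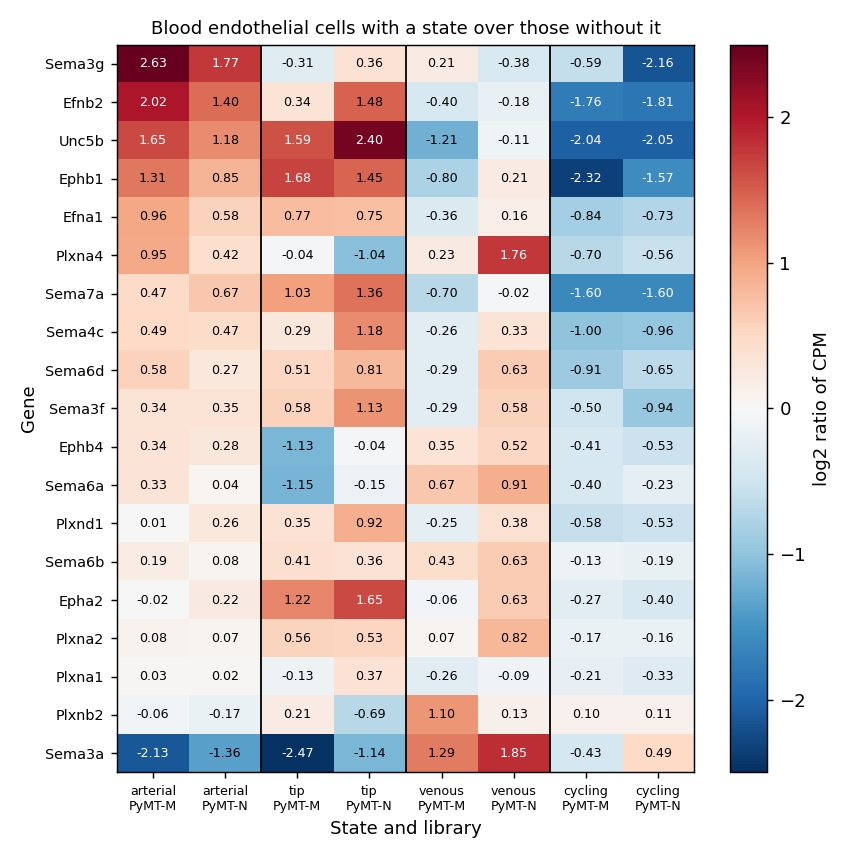
The log2 ratio of CPM in blood endothelial cells with a state over those without it (columns, by state and library) for the 19 members at 10 CPM or more in both libraries (rows), with all blood endothelial cells counted. Sema3g, Efnb2 and Unc5b are high in the arterial columns of both libraries, Ephb1, Unc5b and Sema7a are low in the cycling columns, and Sema3a is low in the arterial and tip columns.

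Efnb2 followed the arterial genes in both libraries. It was higher in arterial cells by 2.02 (1.59 to 2.44) in PyMT-M and 1.40 (1.28 to 1.52) in PyMT-N, and Sema3g by 2.63 (1.62 to 3.65) and 1.77 (1.32 to 2.24). Without immune or pericyte cells the PyMT-N values were 1.2 for Efnb2 and 1.55 for Sema3g. Ephb4, the venous receptor of Efnb2, gave 0.35 (-0.25 to 0.95) in venous cells of PyMT-M and 0.52 (0.28 to 0.76) in those of PyMT-N, and the PyMT-N value without immune or pericyte cells was 0.01 (-0.23 to 0.26). In tip cells Ephb4 was lower by -1.13 (-1.74 to -0.53) in PyMT-M, while PyMT-N gave -0.04 (-0.26 to 0.19) with all cells and -0.61 (-0.83 to -0.38) without the immune or pericyte ones. Plxnd1 was higher in tip cells by 0.35 (0.13 to 0.58) in PyMT-M and 0.92 (0.82 to 1.02) in PyMT-N, which became 0.27 (0.05 to 0.50) and 0.34 (0.24 to 0.44) without those cells. In arterial cells it gave 0.01 (-0.26 to 0.27) and 0.26 (0.20 to 0.32).

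Cells marked by the tip genes, the larger part of the class, held more Unc5b, Ephb1, Sema7a and Epha2 than the rest. Unc5b was higher in them by 1.59 (0.85 to 2.42) in PyMT-M and 2.40 (2.10 to 2.71) in PyMT-N, Ephb1 by 1.68 (0.45 to 3.20) and 1.45 (1.2 to 1.71), Sema7a by 1.03 and 1.36, and Epha2 by 1.22 (0.18 to 2.43) and 1.65 (1.19 to 2.15). Without immune or pericyte cells the PyMT-N ratios were 1.87, 0.86, 0.81 and 1.00 in this order, all in the same direction. Sema3a, a secreted repellent that acts through Nrp1, was lower in tip cells by -2.47 (-3.99 to -1.13) and -1.14 (-1.59 to -0.67). The PyMT-M value rests on 24 UMIs in 12 cells, 7 of them in 1 cell. Sema6a was lower in tip cells of PyMT-M by -1.15 (-1.55 to -0.76), while PyMT-N gave -0.15 (-0.27 to -0.03) with all cells and -0.75 (-0.87 to -0.63) without the immune or pericyte ones. In PyMT-N Plxna4 was lower in tip cells by -1.04 (-1.33 to -0.75), while PyMT-M gave -0.04 (-0.56 to 0.50).

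In cycling cells Unc5b, Ephb1, Efnb2 and Sema7a were lower in both libraries. Unc5b gave -2.04 (-2.89 to -1.28) in PyMT-M and -2.05 (-2.32 to -1.78) in PyMT-N, Ephb1 -2.32 and -1.57, Efnb2 -1.76 and -1.81, and Sema7a -1.60 in each. Plxna2 shifted little, at -0.17 (-0.42 to 0.09) and -0.16 (-0.31 to -0.01).

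The comparison of PyMT-M with PyMT-N was repeated within the arterial state, 49 and 497 cells, a split chosen after seeing the data. Only cells within the limit on gene number entered it. Efnb2 stood at 219 CPM in PyMT-M and 277 CPM in PyMT-N arterial cells, a log2 ratio of -0.34, and at 54.0 and 105 CPM in the other cells, a ratio of -0.96, so that its call was lost in both. Unc5b stood at 132 and 212 CPM in arterial cells (-0.69), which lost its call, and at 42.0 and 93.8 CPM in the others (-1.16). Ephb1 (-1.88 and -2.34) and Sema6a (-1.10 and -1.39) stayed past the fold in both. Among arterial cells 5 of 26 members compared were lower in PyMT-M, where 7.1% of all genes were, and among the other cells 11 of 32, where 11.3% were.

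Pairs of ligand and receptor were also counted within single blood endothelial cells. After thinning, Sema3f and Plxnd1 were seen together in 42.7% of the 288 PyMT-M and 46.9% of the 1020 PyMT-N cells. Sema3f was seen in 55.9% and 53.0% of cells with Plxnd1 and in 30.9% and 29.7% of cells without it. Cells with immune or pericyte UMIs were kept in all pair counts, and their part in these shares was not tested. Sema6a and Plxna2 were seen together in 17.7% and 31.3% of cells, Sema6d and Plxna4 in 11.8% and 8.92%, Efna1 and Epha2 in 3.47% and 11.1%, and Efnb2 and Ephb4 in 4.86% and 13.6%. Efnb2 was no rarer among cells with Ephb4 (29.2% and 44.6%) than among cells without it (21.7% and 41.8%). At 5000 UMIs a cell, most cells with a low level of a gene show none of it.

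Lymphatic endothelial cells were compared with blood endothelial cells in PyMT-N, because PyMT-M had 7 lymphatic cells with 52329 UMIs in all. Of 36 members compared, 8 were at least 4-fold higher in lymphatic cells, where 5.1% of the 13363 genes compared were, and 3 were lower, where 5.5% were. The median log2 ratio of members was -0.36, against 0.091 for all genes. The higher members were Sema3d, Sema3a, Ntn4, Efna5, Sema5a, Plxna4, Efna4 and Ntn1, and the lower ones Sema3g, Plxnc1 and Efnb2. Sema5a and Efna5 were also common in PyMT-N tumor cells, and lymphatic cells held more keratin UMIs than blood endothelial cells. After thinning, Sema5a was seen in 1.54% of lymphatic cells (3 of 195) and 49.4% of tumor cells of PyMT-N. For Efna5 these shares were 34.4% and 60.2%. The part of tumor RNA in the lymphatic levels was not tested.

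**Figure D4:**
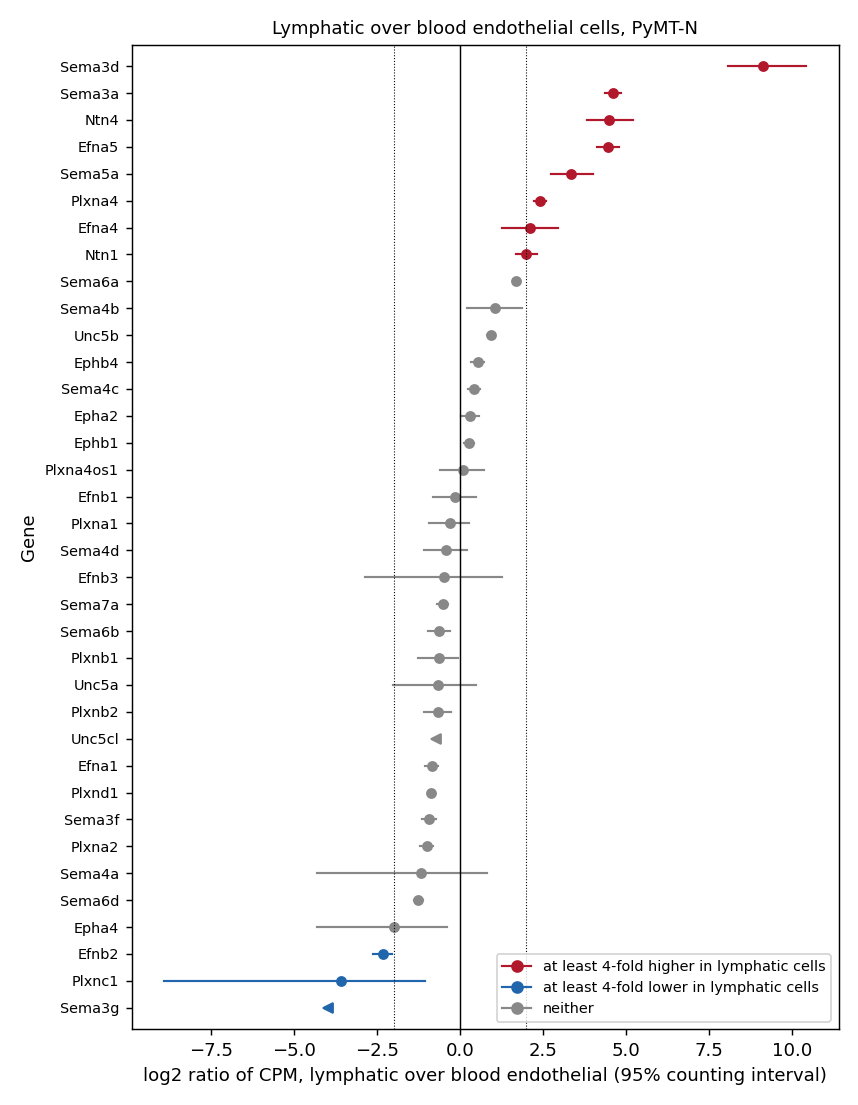
The log2 ratio of lymphatic over blood endothelial cells in PyMT-N for the 36 members compared (points) with exact 95% counting intervals (bars), with dotted lines at 4-fold. Sema3d lies farthest right at 9.12, followed by Sema3a at 4.61, and Efnb2 and Sema3g lie left of the lower line.

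Secreted class 3 semaphorins made the widest gap. Sema3d stood at 263 CPM (737 UMIs) in PyMT-N lymphatic cells and 0.472 CPM (7 UMIs) in blood endothelial cells, a log2 ratio of 9.12 (8.07 to 10.44), and Sema3a at 299 CPM (840 UMIs) and 12.3 CPM (182 UMIs), a ratio of 4.61 (4.37 to 4.85). The 7 PyMT-M lymphatic cells held 31 UMIs of Sema3d (592 CPM) and 24 of Sema3a (459 CPM), ratios of 7.65 (6.44 to 9.08) and 5.51 (4.63 to 6.39). Sema3g, by contrast, held no UMI in lymphatic cells of either library, a ratio of at most -3.97 in PyMT-N at a floor of 3 UMIs. Thinned shares in PyMT-N were 54.9% of lymphatic and 0.196% of blood endothelial cells for Sema3d, and 60.5% and 5.10% for Sema3a (82.9% and 0.676%, and 75.9% and 9.37%, unthinned).

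Netrins were higher in lymphatic cells as well. Ntn4 stood at 34.9 CPM (98 UMIs) against 1.55 CPM, a ratio of 4.49 (3.83 to 5.22), and Ntn1 at 54.9 CPM (154 UMIs) against 13.7 CPM, a ratio of 2.00 (1.69 to 2.31) that lay at the fold used and fell short of it without immune or pericyte cells. Their receptor Unc5b was at 295 CPM against 156 CPM (0.92, 0.81 to 1.04). Efna5, an ephrin-A ligand, stood at 152 CPM (427 UMIs) against 6.95 CPM, a ratio of 4.45 (4.14 to 4.78), and Plxna4 at 170 CPM against 31.8 CPM (2.42, 2.23 to 2.61). Sema6a reached its highest level here, at 774 CPM (2173 UMIs) against 240 CPM, a ratio of 1.69 (1.61 to 1.77) under the fold used. Efnb2 was lower in lymphatic cells of PyMT-N, at 38.8 CPM (109 UMIs) against 196 CPM (-2.33, -2.62 to -2.06), while the 7 PyMT-M lymphatic cells held 17 UMIs, 325 CPM against 80.3 CPM (2.02, 1.21 to 2.73). Ephb1 and Ephb4 differed little, with 0.27 (0.11 to 0.42) and 0.53 (0.34 to 0.71).

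The tumor cells of the 2 lines differed in most members. Of 50 compared, 10 were at least 2-fold higher in PyMT-M, where 21.5% of the 16944 genes compared were, and 27 were lower in PyMT-M, where 27.6% were. The median log2 ratio was -1.44 for members and -0.13 for all genes. With mitochondrial, ribosomal and hemoglobin genes left out of the total the median of all genes became 0.070. Then 27 of 50 members were still lower, where 24.4% of all genes were, and 11 were higher, where 25% were. Summed levels in PyMT-M and PyMT-N tumor cells were 85.5 and 605 CPM for semaphorins, 46.5 and 322 CPM for ephrin-A ligands, 20.1 and 57.2 CPM for ephrin-B ligands, 22.6 and 62.0 CPM for EphA and 5.66 and 98.1 CPM for EphB receptors. Plexins were level at 148 and 154 CPM, and netrins were higher in PyMT-M, at 79.7 and 47.9 CPM.

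**Figure D5:**
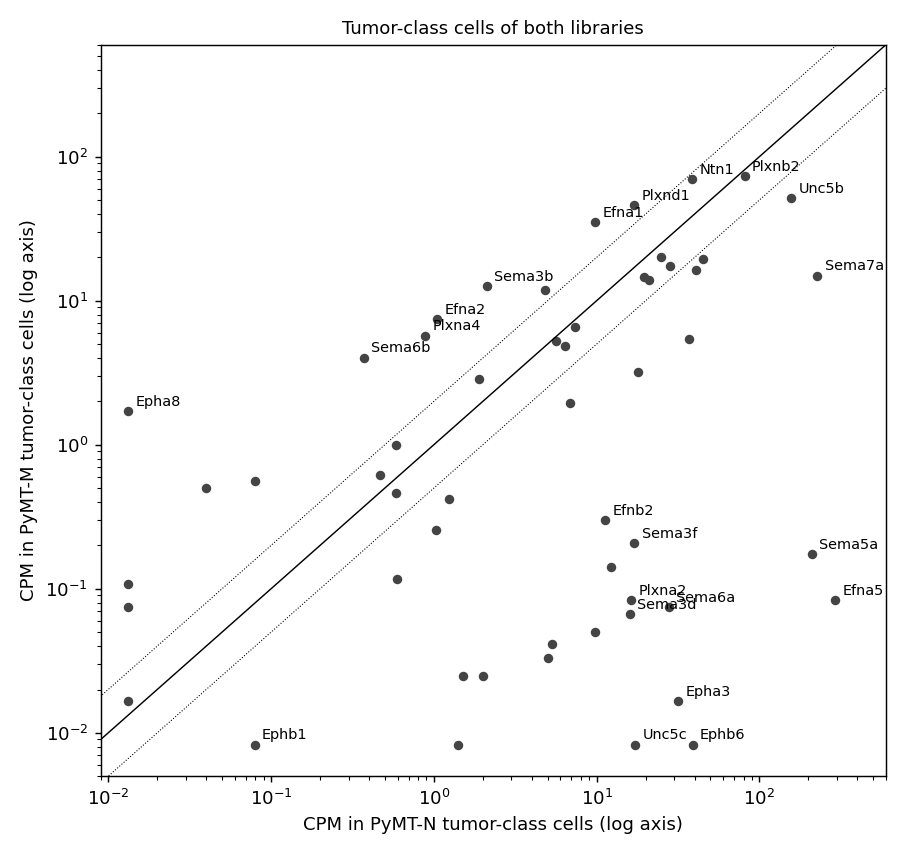
Level of each member in tumor cells of PyMT-N (horizontal) and PyMT-M (vertical), both as CPM on log axes, with genes at 0 drawn at the level of 1 UMI. The solid line marks equal levels and the dotted lines 2-fold. Efna5, Sema5a, Epha3 and Ephb6 lie far below the lines, and Sema6b and Plxna4 above them.

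The widest gaps were near absence in PyMT-M. Efna5 stood at 0.0831 CPM (10 UMIs) against 293 CPM (22050 UMIs) in PyMT-N, or log2 -11.78 (-12.84 to -10.90). Sema5a, a semaphorin with thrombospondin repeats, stood at 0.174 CPM (21 UMIs) and 211 CPM (15890 UMIs), a ratio of -10.24 (-10.93 to -9.63). Epha3, a receptor of Efna5, held 2 UMIs against 2395 (-10.90), Unc5c 1 against 1305 (-11.03), and Ephb6, an Eph receptor without kinase activity, 0 against 2937, a ratio of at most -10.61. Sema7a stood at 14.9 and 227 CPM (-3.93, -4.00 to -3.86), and Ephb4 at 5.46 and 37.0 CPM (-2.76). Plxna2, Sema6a, Sema3f and Efnb2, called in blood endothelium of both models, were also lower in PyMT-M tumor cells, by -7.62, -8.54, -6.36 and -5.24.

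Members higher in PyMT-M tumor cells included ephrin-A ligands and 2 plexins. Efna1 stood at 35.2 CPM (4237 UMIs) against 9.82 CPM (740 UMIs) in PyMT-N, or log2 1.84 (1.73 to 1.96), Plxnd1 at 46.2 and 17.0 CPM (1.44, 1.35 to 1.53), Plxna4 at 5.73 and 0.890 CPM (2.69, 2.32 to 3.07) and Sema6b at 4.04 and 0.372 CPM (3.44, 2.89 to 4.05). Sema3b, Efna2, Efna3, Ntn5, Unc5a and Epha8 completed the 10, and Epha8, with 206 UMIs against 0, gave at least 5.43. Ntn1 was the netrin with the highest level, at 69.7 and 38.6 CPM (0.85, 0.79 to 0.91), and Plxnb2 was level at 73.5 and 81.3 CPM (-0.15, -0.19 to -0.10). In PyMT-M, Ntn1 was thus at 69.7 CPM in tumor cells while Unc5b was at 56.3 CPM in blood endothelial cells. Unc5b was not particular to the latter, since its level in PyMT-M tumor cells was 91.8% of that in blood endothelial cells. After thinning it was seen in 23.2% of tumor and 21.9% of blood endothelial cells of PyMT-M.

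Fibroblast cells numbered 32 and 53, and 10 of the 53 in PyMT-N also held keratin or endothelial UMIs. Of 28 members compared with blood endothelial cells, 5 were at least 4-fold higher in fibroblasts of both libraries, where 4.47% of the 9665 genes compared were, and 9 were lower, where 4.89% were. The median log2 ratio of members was -1.06 and -1.24 in the libraries, while all genes gave -0.29 and -0.21. The higher members were Epha3, at 136 CPM (38 UMIs) and 163 CPM (220 UMIs), Sema5a at 104 and 193 CPM, Sema3c, a secreted semaphorin, at 140 CPM (39 UMIs) and 26.7 CPM (36 UMIs), Efna5 at 61.0 and 153 CPM, and Unc5c at 25.1 and 66.7 CPM. All 5 stayed called without the 10 cells. The 9 lower members were Efna1, Efnb2, Plxna2, Plxnd1, Sema3f, Sema3g, Sema4c, Sema6a and Sema6d. Sema3a differed between the libraries, with 17.9 CPM (5 UMIs) in PyMT-M and 288 CPM (388 UMIs) in PyMT-N fibroblasts.

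Other genes of these pathways were followed in a list of 39 co-receptors, other ligands and signal transducers, of which 38 matched a symbol. In blood endothelial cells 2 of 32 compared (6.25%) were higher in PyMT-M (Rnd1 and Flrt2) and 3 (9.38%) lower (Cd72, Trem2 and Vav2), shares close to the 5.61% and 9.97% of all genes. Cd72, a B cell receptor of class 4 semaphorins, held 1 UMI in PyMT-M against 245 in PyMT-N. Trem2, a receptor of macrophages, held 0 and 76. Without the cells with immune or pericyte UMIs, 2 of the 245 and 0 of the 76 were left, and immune markers summed to 72.7 and 421 CPM in the class, with Cd79a of B cells at 5.46 and 63.3 CPM. Rnd1, a GTPase that binds plexins, stood at 48.8 CPM and 16.1 CPM, a log2 ratio of 1.60 (1.27 to 1.93), and Vav2, an exchange factor downstream of Eph receptors, at 5.46 and 19.6 CPM (-1.85, -2.77 to -1.05). Against tumor cells, 4 of 34 (11.8%) were higher in blood endothelial cells of both libraries (Arhgef15, Fyn, Kalrn and Rnd1), where 7.48% of all genes were, and 3 (8.82%) lower (Neo1, Ngef and Rgma), where 2.87% were. Arhgef15, an exchange factor of endothelium that acts with Eph receptors, was higher by 7.20 in PyMT-M and 6.73 in PyMT-N.

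The neuropilins split blood from lymphatic cells. Nrp1 stood at 463 CPM in PyMT-N blood endothelial and 29.6 CPM in lymphatic cells (-3.97, -4.30 to -3.66), and Nrp2 at 169 and 882 CPM (2.38, 2.30 to 2.46). Lymphatic cells were higher for 5 of 33 listed genes (15.2%, Flrt2, Flrt3, Mical2, Neo1 and Nrp2), where 5.1% of all genes were, and lower for 2 (6.06%, Cd72 and Nrp1), where 5.5% were. Cd72 stood at 1.43 CPM in lymphatic cells against 16.5 CPM in blood endothelial cells with all cells counted and 0.150 CPM without the immune or pericyte ones. The neuropilins also split the tumor lines, with Nrp1 at 0.0665 CPM in PyMT-M and 189 CPM in PyMT-N and Nrp2 at 165 and 42.8 CPM, among 7 (19.4%) higher and 14 (38.9%) lower of 36 compared, where 21.5% and 27.6% of all genes were. In fibroblasts 1 of 27 (3.70%) was higher (Flrt2) and 1 lower (Arhgef15) than in blood endothelial cells, where 4.47% and 4.89% of all genes were.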

How the data were processed

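Single cells of PyMT-M and PyMT-N tumors were measured in 1 droplet library (10x Genomics 3′ v3.1) per model. The values are UMI counts, whole and not normalized, which the authors deposited for each gene and barcode. The submitters' processing notes name Cell Ranger 8.0.0 and build mm39. Annotation and strand setting: not given in the sources used here. No column holds another sample's values.

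Barcodes with at least 200 detected genes, within 2-fold of the library's median gene number and with no more than 10% of UMIs from mitochondrial genes passed the filter, which is that of the study's methods. Cells were grouped by UMI counts of class genes. A cell that met the lymphatic and the blood rule was lymphatic, and cells meeting other pairs of rules were left out. No doublet caller was run, and leaving out the 10% of cells with the most UMIs was an alternative. Counts were summed per class and library and scaled to CPM, with exact Poisson intervals, exact conditional binomial intervals of ratios and Clopper-Pearson intervals of shares, all at 95%. Genes with at least 20 UMIs over the cells compared were kept. A gene with no UMI on one side was set to a floor of 3 counts, and its ratio is a bound. Calls are folds (2 between libraries, 4 between classes), not tests. UMIs of 1 library are not replicates.

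Genes named were the 10 members with the highest blood endothelial levels, the 5 highest and 5 lowest of each comparison, fixed ligand and receptor pairs and Sema6a. A few more, such as Sema3e, Ephb6 and genes at a limit, were chosen after their values were seen. The members, lists and tests were chosen with earlier results of these data known. Intervals and ratios were tested on simulated counts. Alternatives covered the filters, class limits, scaling, count minimum, fold, depth and cells with markers of other types. Software was matplotlib 3.10.9, pandas 2.3.3, scipy 1.17.1 and numpy 2.4.6 under Python 3.11.15.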

Additional observations from a re-analysis of the deposited data

Results flagged for a closer look

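Past a fold of 2, 3 members moved in opposite directions in the 2 cell classes, and with 1 library per condition the difference between classes was not tested. Of all genes, 5.61% were higher and 9.97% lower in PyMT-M blood endothelial cells, and 21.5% and 27.6% in PyMT-M tumor cells. The share of all genes with opposite moves was not counted, so the 3 are listed only as single genes. As log2 of PyMT-M over PyMT-N, the ratio for Epha4 was 1.42 in blood endothelial and -7.40 in tumor cells. For Sema5a it was 1.18 and -10.24, where the blood endothelial value rested on 12 and 33 UMIs. Of these, 4 and 14 were left without cells that held immune or pericyte UMIs. For Unc5a it was -1.63 and 1.30, where the blood endothelial value rested on 3 and 58 UMIs.

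A signal also lay in a group of cells with Ptprc, the gene of CD45, drawn from all kept cells. These cells held at least 2 UMIs of Ptprc, no UMI of Flt1 and at most 1 UMI of Krt8, Krt18 and Rhox5 together. The group can share cells with the 4 classes, and the overlap was not counted. Such cells numbered 21 and 146 in the libraries although CD45+ cells had been depleted. They held Sema4d, a semaphorin of lymphocytes, at 213 and 181 CPM, Plxnc1, the plexin that binds Sema7a, at 33.3 and 45.5 CPM, and Unc5cl at 26.6 and 17.3 CPM. Blood endothelial cells held these genes at 1.26 and 11.9 CPM, 0 and 4.32 CPM, and 0 and 1.75 CPM. Of the PyMT-N blood endothelial UMIs of these genes, 2 of 176, 1 of 64 and 0 of 26 were left without cells that held immune or pericyte UMIs.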

How the results depend on the processing

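No paired analysis was possible because each condition is 1 library, and for the same reason no replicate could be left out. Under the alternatives, 546 recomputed blood endothelial ratios of single members lay within their counting interval, 41 moved beyond it, and 2 called ones changed sign, Efna5 (0.55) and Unc5a (0.32) within arterial cells, from 6 and 2 PyMT-M UMIs. The 4 members higher in PyMT-M became 2 of 29 compared with at least 50 UMIs required, where 4.56% of all genes were higher. They became 2 of 33 without the 10% of cells with the most UMIs (5.69% of all genes). With cells thinned they were 0 of 26 (5.56%), and with 1 UMI required 10 of 50 (11.8%). The 12 lower members became 19 of 35 at a fold of 1.5, where 18.5% of all genes were lower. They became 8 of 29 without cells with immune or pericyte UMIs (6.74%) and 5 of 26 within arterial cells (7.1%), alternatives chosen after seeing the data. Without the limit on gene number they were 9 of 35 (8.93%). The 8 members higher in lymphatic cells became 13 of 51 with 1 UMI required, where 8.03% of all genes were. The 5 higher in fibroblasts became 0 of 16 with 50 UMIs (3.57% of all genes) and 10 of 46 with 1 UMI (6.5%). With at least 5 UMIs of a state list, the PyMT-M venous ratio of Ephb4 turned from 0.35 to -0.16, the PyMT-N arterial ratio of Efnb2 went from 1.40 to 1.17 and the PyMT-N tip ratio of Plxnd1 from 0.92 to 0.63. Without immune or pericyte cells the PyMT-N ratios were 1.2 for Efnb2, 0.34 for Plxnd1 and 0.0094 for Ephb4 in venous cells, which had been 0.52. Unthinned shares of blood endothelial cells were 87.1% and 95.5% for Plxnd1, 31.3% and 61.5% for Efnb2 and 22.9% and 59.1% for Ephb4, against 76.4% and 88.4%, 22.9% and 42.6%, and 16.7% and 30.6% thinned. The cause of these shifts was not tested. Depth limits the PyMT-M blood endothelial class, where 1 UMI is 0.420 CPM, and its 7 lymphatic cells, where 1 UMI is 19.1 CPM.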

Other observations

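Cells meeting both the blood endothelial and the lymphatic rule, 3 of PyMT-M and 172 of PyMT-N, were counted as lymphatic. Counted as blood endothelial instead, they brought the ratio between PyMT-M and PyMT-N (log2) from -0.28 to -1.94 for Sema3a and from 2.64 to 0.70 for Ntn4. In PyMT-M, 23 blood endothelial cells without the capillary state held Sema3a at 70.6 CPM against 5.01 CPM in the other 287. Both values rest on 24 UMIs in 12 cells in all, 7 of them in 1 cell.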
